A study of Mus musculus with 54 samples.

Results

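In this comparison, 7 days of the drug AICAR were set directly against 7 days of wheel running in the lateral entorhinal cortex (LEC), the cortical region that feeds the hippocampus. The comparison took 6 of the 54 arrays of the series, 3 from AICAR mice (ACR7) and 3 from running mice (RUN7), chosen by tissue, treatment and day as the labels give them. No measured value entered that choice. All were male C57BL/6J mice, 1 month old and housed singly. ACR7 mice were injected into the abdomen each day with 500 mg/kg of AICAR in saline and had no wheel. RUN7 mice were injected with saline and could run at will. The 3 control mice of day 7 (CTR7) had saline and no wheel, and they are used here only to place the levels of both groups. AICAR is an activator of AMPK, the kinase that senses low energy in cells. The study compared it with exercise, and a direct contrast shows in which genes drug and exercise part without leaning on shared controls.

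RNA of whole tissue was hybridised to Illumina MouseRef-8 bead arrays. Per the methods, only the 3 purest and most concentrated RNA samples of each group were put on arrays, so the mice are a selection by RNA quality. Between 11666 and 12205 probes were detected on the 6 arrays. Levels are log2 intensities brought to a common mean and spread on each array (scaled log2 intensity), so a difference of 1 is a 2-fold change. The spread of the raw log2 intensities was alike in the groups, with an SD of 1.743 to 1.785 in ACR7, 1.689 to 1.858 in RUN7 and 1.682 to 1.851 in CTR7. Across genes, arrays correlated at 0.9886 to 0.991 within ACR7, at 0.9801 to 0.9893 within RUN7 and at 0.9763 to 0.9914 between the groups, where genes are not independent. Of 14 genes known from the entorhinal cortex and upper cortical layers, 8 were measured, with a mean level of 8.125 to 8.438 in ACR7 and 8.225 to 8.464 in RUN7, so the groups overlapped in the markers of the labelled region.

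Blood vessels of the brain are lined by endothelial cells joined by tight junctions, which form the blood-brain barrier. They take up glucose, amino acids and other solutes through dedicated transporters, and they answer to vascular endothelial growth factor (VEGF), angiopoietins and shear stress from the flowing blood. Pericytes and smooth muscle cells, together called mural cells, wrap the vessels from outside. Endothelial cells are a small part of cortical tissue, so their genes are read here within the RNA of all cells, and in such bulk samples fewer cells of a type and less RNA per cell cannot be told apart.

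Of 8544 genes tested (the brightest probe of each gene detected throughout at least 1 LEC group), 13 set the 2 groups apart with an adjusted p under 0.05 (limma, Benjamini-Hochberg over all genes). All 13 were lower in ACR7, which is 0.152% of the genes tested, and 0 (0%) were higher. At an unadjusted p under 0.05 there were 234 lower genes (2.74%) and 230 higher genes (2.69%), and the median difference over all genes was 0.01, with lower means in ACR7 in 47.7% of them. Among the 13, 12 are genes of vessel cells. They are the VEGF receptor Flt1, the chemokine Cxcl12, the phosphatase Ptprb, the guidance receptor Robo4, the transporter Slco1a4, the surface proteins Esam, Icam2 and Mmrn2, the signalling proteins Rasip1 and Tmem204, the transcription factor Gata2 and the pericyte gene Rgs5. The other one is Rnf112, a RING finger GTPase of brain. In the 11 called genes that were detected on at least 1 ACR7 array, RUN7 levels were 1.46 to 3.23 times those of ACR7, with Tmem204 and Flt1 at the ends of the range. Mmrn2 and Gata2 were not detected on any ACR7 array, so only a bound is given for them. In all 13 genes the 3 ACR7 arrays lay below the 3 RUN7 arrays, as they did in 4.67% of all genes tested. The 13 were chosen by their difference on these same arrays, which favours such a separation, so it is a description.

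**Figure D1:**
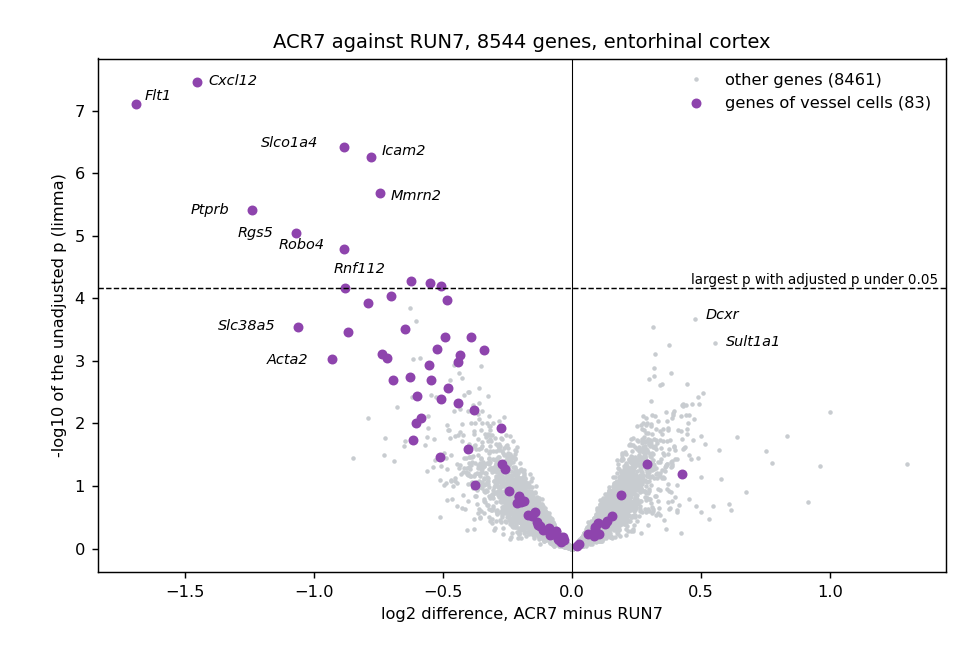
Each point is one of 8544 genes, with the log2 difference of ACR7 minus RUN7 on the horizontal axis and -log10 of the unadjusted p of limma on the vertical axis. The 83 measured genes of vessel cells (purple, a list written after the values were seen) include 12 of the 13 called genes at the upper left and 14 genes right of 0, and no gene on the right reaches the dashed line of the largest p that was called.

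The number of calls rests on few arrays. It was 4 without ACR7 replicate 1 or without RUN7 replicate 1, 5 without ACR7 replicate 3, 8 without RUN7 replicate 2 or RUN7 replicate 3, and 10 without ACR7 replicate 2. Flt1, Cxcl12, Slco1a4 and Icam2 passed in each of these 6 fits. Esam and Rnf112 were called in 2 of 16 alternatives, Tmem204 in 3 of 16, Gata2 in 3 of 15 and Rasip1 in 5 of 15, so these calls depend on the setting. With the spread taken from the 9 arrays of day 7 alone, in place of all 28 LEC arrays, only Flt1 passed.

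The promoters of these genes are shown because these genes were called together and because endothelial genes are known to be driven by ETS factors and by GATA2. RefSeq promoters (GRCm38.p6) were given for 7 of the 13 called genes. The 250 bases before the start are printed for the receptors Flt1 (chr5:147726012-147726261, minus strand) and Robo4 (chr9:37401722-37401971, plus strand), for the transporter Slco1a4 (chr6:141856221-141856470, minus strand) and for the chemokine Cxcl12 (chr6:117168285-117168534, plus strand), read 5′ to 3′ in the direction of the gene. Capitals mark the ETS word AGGAAG or its reverse complement CTTCCT.
Flt1: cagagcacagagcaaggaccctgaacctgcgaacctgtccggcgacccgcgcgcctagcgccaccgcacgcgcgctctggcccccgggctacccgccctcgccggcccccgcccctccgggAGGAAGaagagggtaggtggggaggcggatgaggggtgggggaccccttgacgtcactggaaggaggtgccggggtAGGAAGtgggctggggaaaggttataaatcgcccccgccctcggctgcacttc
Robo4: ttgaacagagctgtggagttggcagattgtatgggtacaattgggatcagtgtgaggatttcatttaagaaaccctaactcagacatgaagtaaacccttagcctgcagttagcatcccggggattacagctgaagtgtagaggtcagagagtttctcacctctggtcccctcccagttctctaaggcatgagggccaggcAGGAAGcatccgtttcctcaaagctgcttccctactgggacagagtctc
Slco1a4: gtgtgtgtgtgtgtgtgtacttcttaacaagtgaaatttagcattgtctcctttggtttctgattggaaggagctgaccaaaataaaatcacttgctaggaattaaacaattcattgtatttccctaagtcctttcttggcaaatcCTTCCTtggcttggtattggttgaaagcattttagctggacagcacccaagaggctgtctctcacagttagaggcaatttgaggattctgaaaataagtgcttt
Cxcl12: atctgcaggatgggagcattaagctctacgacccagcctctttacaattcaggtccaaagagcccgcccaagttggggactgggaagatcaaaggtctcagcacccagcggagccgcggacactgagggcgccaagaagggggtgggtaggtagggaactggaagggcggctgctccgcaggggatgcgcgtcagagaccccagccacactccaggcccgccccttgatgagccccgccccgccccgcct
The ETS word stood 129 and 53 bases before the start of Flt1, 49 bases before that of Robo4 and 104 bases before that of Slco1a4, and it was not among these letters of Cxcl12. Of the windows not printed, that of Rasip1 held the ETS word and those of Gata2 and Rgs5 did not. Over all 32851 promoter windows of that length, 29.5% held it on either strand, and 27.2% of those of genes tested did, beside 4 of the 8 windows of called genes. The GATA word AGATAA or its reverse complement TTATCT was in 9.99% of all windows, in 5.56% of those of genes tested and in 1 of the 8, that of Rgs5. A match to 6 letters is a description of the sequence, not a bound site.

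Flt1 encodes VEGF receptor 1, which binds VEGF-A and placental growth factor at the endothelial surface. Its level was 7.75, 8.21 and 8.04 in ACR7, 9.66, 9.66 and 9.76 in RUN7, and 8.38, 8.93 and 7.93 in CTR7. RUN7 arrays were thus tightly grouped and stood above all others, while 1 control array (CTR7 replicate 3) fell within the ACR7 range and the other control arrays lay between ACR7 and RUN7. The difference of ACR7 minus RUN7 was -1.69 (SE 0.23, 95% interval -2.16 to -1.22, adjusted p = 0.000333), a level 3.23 times as high in RUN7. Cxcl12, a chemokine that endothelial cells secrete to hold and guide cells with its receptor CXCR4, behaved alike. It had 7.71, 8.37 and 8.21 in ACR7, 9.52, 9.54 and 9.59 in RUN7, and 8.61, 8.89 and 7.87 in CTR7, and differed by -1.45 (SE 0.19, adjusted p = 0.000297). Of the 3 Cxcl12 probes, this one is the brightest, and the other probes differed by -0.53 (unadjusted p = 0.00549) and -0.33 (unadjusted p = 0.0949), in the same direction but by less.

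Further receptors and signalling proteins of endothelium were lower in ACR7. Ptprb, a receptor phosphatase that restrains the angiopoietin receptor TIE2 and keeps junctions closed, had 6.69, 7.07 and 6.65 in ACR7 and 8.30, 7.90 and 7.93 in RUN7 (difference -1.24, SE 0.21, adjusted p = 0.00558). Its CTR7 levels of 6.87, 7.15 and 6.48 spanned those of ACR7 and lay below those of RUN7. Robo4, an endothelial receptor that steadies vessels against VEGF, had 6.27, 6.66 and 6.44 in ACR7, 7.51, 7.15 and 7.38 in RUN7 and 6.85, 7.28 and 6.37 in CTR7 (difference -0.88, SE 0.17, adjusted p = 0.0174). It was detected on 2 of 3 ACR7 arrays and on 3 RUN7 arrays, and the control arrays spread over the range of both groups. Rasip1, a binder of Ras-type GTPases needed to open the vessel lumen, had 6.66, 6.64 and 6.38 in ACR7, 7.34, 7.21 and 6.997 in RUN7 and 6.44, 6.39 and 6.81 in CTR7 (difference -0.62, SE 0.13, adjusted p = 0.0439). Tmem204, a claudin-like membrane protein, had 7.85, 8.17 and 8.05 in ACR7, 8.67, 8.55 and 8.48 in RUN7 and 8.18, 8.38 and 8.19 in CTR7 (difference -0.55, SE 0.11, adjusted p = 0.0439). Rasip1 in CTR7 lay with ACR7, while Tmem204 in CTR7 lay between the groups. Among 22 measured genes of 29 in a list of endothelial receptors and signalling proteins, 20 had lower means in ACR7, 5 were called and the median was -0.44. This list and those of surface proteins, transporters, transcription factors and basement membrane below were written after the values were seen. Their counts are thus a description. Over all genes tested, 47.7% had lower means in ACR7 and 0.152% were called lower. Cd93, a receptor of the matrix protein Mmrn2, was just outside with -0.48 (adjusted p = 0.0609). Tek, which encodes TIE2, had a difference of -0.55 with groups apart but an adjusted p of 0.344. Kdr, the main signalling receptor for VEGF, overlapped between the groups, with 6.55, 6.54 and 6.42 in ACR7 and 6.45, 6.65 and 6.51 in RUN7. The 95% interval of its difference ran from -0.20 to 0.14. Its level was low, though it was detected on all 3 arrays of both groups.

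**Figure D2:**
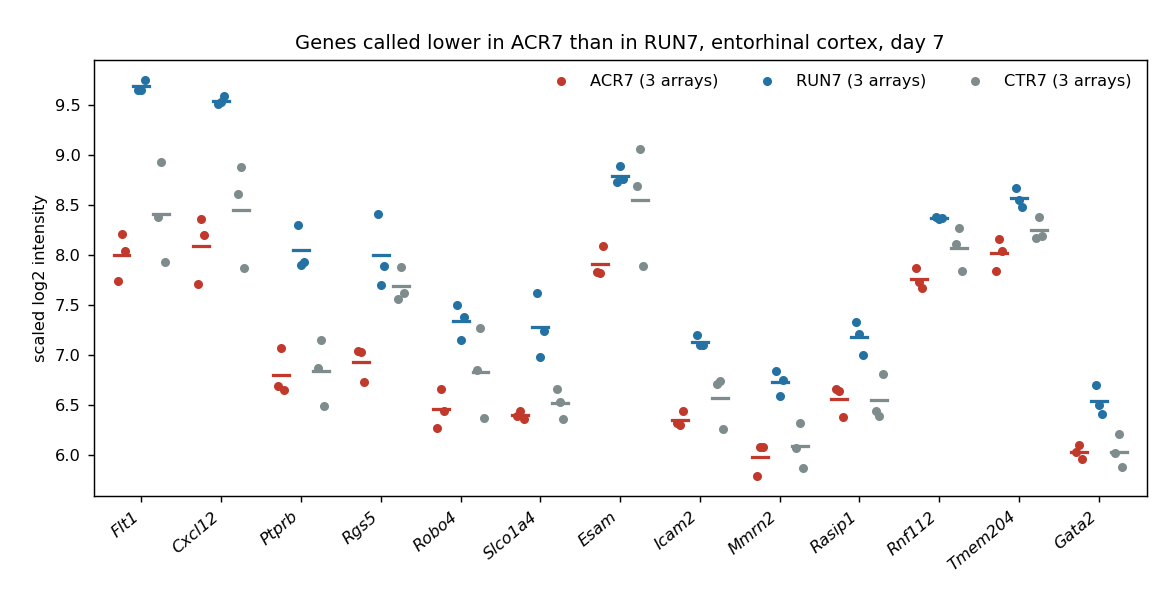
Scaled log2 intensity of the 13 called genes on each array, with ACR7 in red, RUN7 in blue and CTR7 in grey, and the group mean as a bar. The genes were chosen for their difference between ACR7 and RUN7, which favours a gap between these groups. ACR7 arrays lie below RUN7 arrays in every gene, and the CTR7 arrays mostly lie between them or beside ACR7.

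Proteins of the endothelial surface and of cell junctions formed the next group. Icam2, an adhesion molecule for leukocytes that endothelium carries at rest, had 6.32, 6.30 and 6.44 in ACR7, 7.20, 7.10 and 7.10 in RUN7 and 6.71, 6.74 and 6.26 in CTR7 (difference -0.78, SE 0.12, adjusted p = 0.00119). It was detected on 1 ACR7 array and on 3 RUN7 arrays. Esam, an adhesion molecule of tight junctions, had 7.83, 7.82 and 8.09 in ACR7 and 8.73, 8.89 and 8.77 in RUN7 (difference -0.88, SE 0.18, adjusted p = 0.0447), against 8.69, 9.07 and 7.89 in CTR7. For this gene 2 of the 3 control arrays sat with RUN7. Mmrn2, an endothelial matrix glycoprotein, had 5.78, 6.08 and 6.08 in ACR7, 6.84, 6.59 and 6.75 in RUN7 and 6.07, 6.32 and 5.86 in CTR7. It was detected on no ACR7 array and on 3 RUN7 arrays, and was at least 1.27-fold higher in RUN7 when set against the lowest detected signal of each ACR7 array (fitted difference -0.75, adjusted p = 0.00354). Pecam1, the CD31 antigen by which endothelium is usually stained, was likewise detected on 0 ACR7 and 3 RUN7 arrays, with a bound of 1.34-fold, and missed the threshold (adjusted p = 0.0569). Of 17 measured genes of 24 in that list, 16 had lower means in ACR7, 3 were called, and the median was -0.52.

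Transporters of the blood-brain barrier included 1 called gene, which was lower in ACR7. Slco1a4, an organic anion transporter of brain endothelium, had 6.39, 6.44 and 6.36 in ACR7, 7.62, 6.98 and 7.24 in RUN7 and 6.66, 6.53 and 6.36 in CTR7. It differed by -0.88 (SE 0.13, adjusted p = 0.00111) and was detected on 2 ACR7 arrays, so its ACR7 level lay near background. The glutamine carrier Slc38a5 had a difference of -1.06 (adjusted p = 0.119), the large neutral amino acid carrier Slc7a5 by -0.39 (adjusted p = 0.144) and the taurine carrier Slc6a6 by -0.44 (adjusted p = 0.216). None of these passed the threshold. ACR7 and RUN7 arrays did not overlap in any of them, but they were named after their values were seen, which favours this. Over all genes tested, the groups were apart in 4.67% with ACR7 lower and in 5.48% with ACR7 higher. Slc2a1, the GLUT1 glucose carrier of the barrier, had 9.38, 9.51 and 9.52 in ACR7 and 10.05, 9.67 and 9.82 in RUN7, with a difference of -0.38 (adjusted p = 0.646). Of 12 measured transporters of 20 listed, 8 had lower means in ACR7 and 4 had higher ones, with a median of -0.36. The higher ones were Mfsd2a (0.19), Tfrc (0.16), Slc38a3 (0.13) and Slc3a2 (0.10), none of them called. In Tfrc the ACR7 arrays all lay above the RUN7 arrays.

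Transcription factors of endothelium were measured in 9 cases of 21, and 8 had lower means in ACR7, with a median of -0.51. Gata2, which drives endothelial and blood stem cell genes, had 6.03, 6.10 and 5.96 in ACR7, 6.70, 6.50 and 6.41 in RUN7 and 6.02, 6.21 and 5.87 in CTR7. It was detected on 0 ACR7 and 3 RUN7 arrays and was at least 1.12-fold higher in RUN7 (fitted difference -0.51, adjusted p = 0.0446). Foxq1, a forkhead factor of brain endothelium, had 6.96, 7.45 and 6.95 in ACR7, 8.05, 8.06 and 7.86 in RUN7 and 6.81, 7.13 and 6.79 in CTR7 (difference -0.87, adjusted p = 0.128). Klf2, a factor that endothelium switches on under shear stress, had 7.04, 7.69 and 7.51 in ACR7, 8.03, 8.09 and 8.20 in RUN7 and 6.97, 6.94 and 7.34 in CTR7 (difference -0.69, adjusted p = 0.344). In both genes RUN7 arrays stood above all others, but the direct difference did not pass. Ets1 had a difference of -0.55 (adjusted p = 0.254) and Sox18 one of -0.63 (adjusted p = 0.337).

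Among mural cell genes, Rgs5 was the 1 called. Rgs5, a regulator of G protein signalling in pericytes, had 7.04, 7.03 and 6.73 in ACR7, 8.41, 7.71 and 7.89 in RUN7 and 7.57, 7.88 and 7.62 in CTR7, and differed by -1.07 (SE 0.19, adjusted p = 0.011). Here ACR7 lay below every control array, whereas RUN7 did not lie above them. The smooth muscle actin Acta2 had a difference of -0.93 (adjusted p = 0.223), with levels of 7.59 to 8.13 in ACR7 and 8.61 to 9.04 in RUN7, and its other probes had -0.44 (unadjusted p = 0.00185) and -0.28 (unadjusted p = 0.067). Among other pericyte genes detected on all arrays of both groups, the proteoglycan gene Cspg4 had a log2 difference of -0.05 and the vitronectin gene Vtn one of -0.04. Higd1b had 0.03 and Notch3 0.09, and the groups overlapped in each of these genes. Cspg4 is also listed here as a marker of oligodendrocyte precursors. The PDGF receptor gene Pdgfrb was detected on 1 ACR7 and 0 RUN7 arrays, so no difference is given for it. Of the 7 measured genes of the pericyte and vessel wall list, 1 was called and the median was -0.04. The basement membrane genes, 8 measured of 11, had a median of -0.13 and no call, with 5 lower and 3 higher in ACR7. Among them Hspg2, which encodes perlecan, had -0.44 (adjusted p = 0.239) and Sparc 0.43 (adjusted p = 0.957). Rnf112, the called gene that is not known from vessels, had 7.87, 7.73 and 7.67 in ACR7, 8.38, 8.37 and 8.37 in RUN7 and 8.11, 8.27 and 7.84 in CTR7 (difference -0.62, SE 0.13, adjusted p = 0.0439), so the controls lay between the groups and touched ACR7.

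A shorter list of endothelial markers, written with earlier results of these data known, was counted beside these. Of its 18 genes 14 were measured, Cldn5, Cdh5, Ly6a and Abcb1a were not tested, and the 14 had lower means in ACR7. In 10 of them the groups did not overlap, against 4.67% of all genes tested with ACR7 lower and 5.48% with ACR7 higher. An unadjusted p under 0.05 was reached by 11, and 3 were called (Flt1, Slco1a4 and Esam). The median was -0.53, beside 0.01 for all genes. ACR7 and RUN7 did not overlap in the mean level of the 14 genes, which was 7.743 to 7.951 in ACR7, 8.382 to 8.514 in RUN7 and 7.813 to 8.225 in CTR7. Over the 83 measured vessel genes of 134 named in the 7 role lists, which were written after the values were seen, 69 had lower means in ACR7 and 12 were called, with a median of -0.34. Genes that ACR7 arrays did not detect, such as Pecam1, Mmrn2 and Gata2, entered the test only because another group detected them, so these counts are a description.

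**Figure D3:**
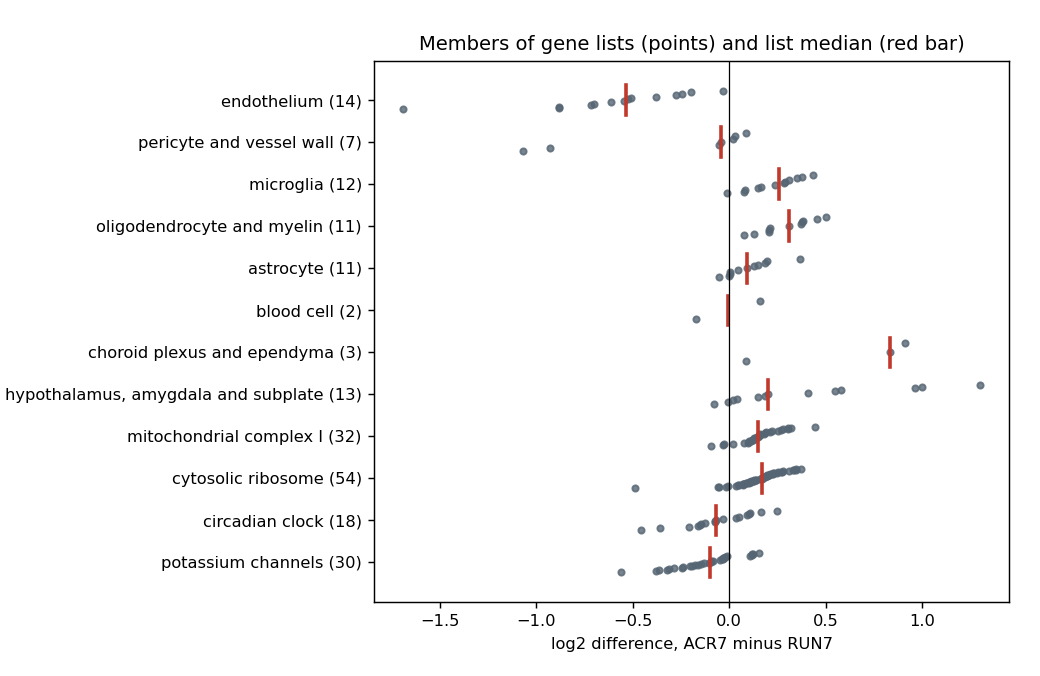
Log2 difference of ACR7 minus RUN7 for each measured member of 12 gene lists (points, number of genes in brackets), with the list median as a red bar. The endothelial genes all lie left of 0, with a median of -0.53, and the microglial and myelin lists have medians of 0.26 and 0.31.

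The levels in CTR7 are set beside both groups here. The RUN7 and ACR7 arrays had already served to choose the 13 genes and to write the vessel lists, which favours high RUN7 and low ACR7 levels in them, so these counts are a description. Against CTR7, whose 3 arrays both comparisons share, RUN7 had 83 genes called, 61 higher (0.714%) and 22 lower (0.257%), and ACR7 had 119 called, 68 higher (0.796%) and 51 lower (0.597%). Of the 13 genes, 8 were called higher in RUN7 than in CTR7, among them Flt1 (1.28, adjusted p = 0.0103), Ptprb (1.21, adjusted p = 0.0103), Cxcl12 (1.09, adjusted p = 0.0103) and Slco1a4 (0.76, adjusted p = 0.0103). In 10 of the 13 all RUN7 arrays exceeded all CTR7 arrays, as they did in 7.84% of all genes. Only Rgs5 was called lower in ACR7 than in CTR7 (-0.76, adjusted p = 0.0454), and Rgs5 and Tmem204 were the 2 genes in which every ACR7 array lay below every CTR7 array, against 9.15% of all genes. Igfbp7, a growth factor binding protein of vessel matrix, was outside the called set in the direct comparison (-0.79, adjusted p = 0.0636) but was called higher in RUN7 than in CTR7 (0.72, adjusted p = 0.043), and so were Foxq1 (1.08, adjusted p = 0.0193), Klf2 (1.02, adjusted p = 0.021) and Slc6a6 (0.65, adjusted p = 0.0103). Of the 83 vessel genes 14 were called higher and 0 lower in RUN7, and 0 higher and 3 lower in ACR7. These calls lean on single control arrays. Without CTR7 replicate 1 the counts were 2 for RUN7 and 0 for ACR7, and without CTR7 replicate 3 they were 410 and 445. For RUN7 the count was also 14 without CTR7 replicate 2, 338 without RUN7 replicate 1, 8 without RUN7 replicate 2 and 0 without RUN7 replicate 3. For ACR7 it was 1 without CTR7 replicate 2, 0 without ACR7 replicate 1 and 1 without ACR7 replicate 2. CTR7 replicate 3 was the lowest control array for Flt1, Cxcl12, Esam, Icam2, Mmrn2, Ptprb, Robo4, Slco1a4, Rnf112 and Gata2. It was not the lowest for Rgs5, Rasip1 and Tmem204, so this array drew the CTR7 mean down in most called genes. How far it set the place of CTR7 differed by gene. In Ptprb the other control arrays, at 6.87 and 7.15, still lay near ACR7, and in Esam, at 8.69 and 9.07, they lay beside RUN7.

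The later groups of LEC arrays place the levels of Flt1 further. The calls were made on ACR7 and RUN7 with the spread of all 28 LEC arrays, so nothing is read from the rank of ACR7 or RUN7 among the groups. Flt1 averaged 8.587 ± 0.128 after 14 days of AICAR against 8.928 ± 0.095 in its controls, and 8.474 ± 0.633 after 14 days of running against 8.421 ± 0.229 in its own controls (SD, n = 3 each). After 28 days of running it averaged 8.733 ± 0.027 (n = 3), against 9.402 ± 0.264 in controls (n = 4), a decrease (-0.67, adjusted p = 0.0357). None of the 13 genes was called at day 14, where 0 of 8544 genes (0%) passed limma's test in either treatment, with 1226 genes at an unadjusted p under 0.05 for AICAR and 748 for running. Of the 83 vessel genes, 16 were called lower and 2 higher in RUN28, where 7.67% of all genes were lower and 7.26% higher. Flt1 was thus higher than in controls after 7 days of running and lower after 28 days, but the difference between the days was not tested, and CTR28 had the highest mean of the control groups. Over the 22 LEC arrays outside ACR7 and RUN7, the 13 genes were also compared with each other. The 78 pairs correlated at a median of 0.534 (from -0.113 to 0.901), and 76 pairs were positive, with Flt1 and Ptprb the closest pair. The points share the tissue and include differences between groups. Pairs of other genes were not compared, so these correlations stand without a baseline.

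**Figure D4:**
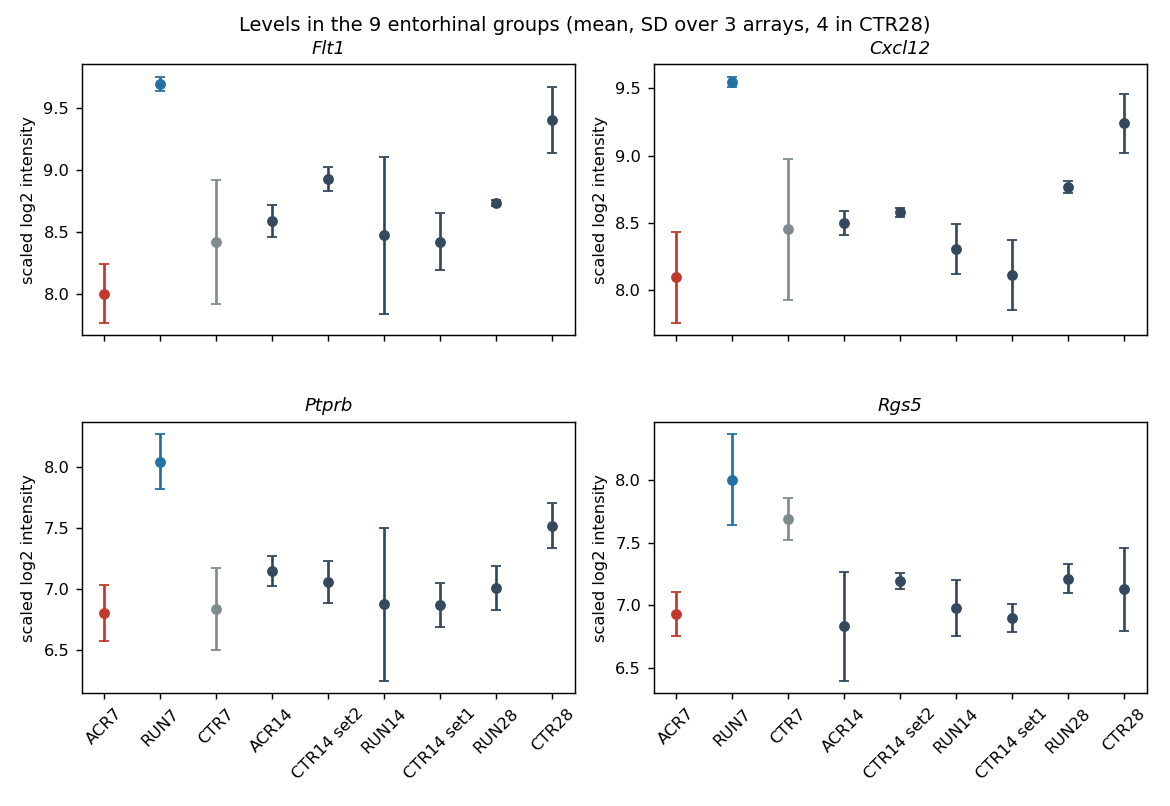
Mean scaled log2 intensity with SD of Flt1, Cxcl12, Ptprb and Rgs5 in the 9 LEC groups (3 arrays each, 4 in CTR28). The genes were chosen for the gap between ACR7 (red) and RUN7 (blue), and among the control groups CTR28 has the highest mean for Flt1, Cxcl12 and Ptprb and CTR7 for Rgs5.

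In the dentate gyrus (DG), the hippocampal area collected from the same experiment, all 13 genes also had lower means in ACR7 than in RUN7. The genes were chosen for a large difference in the LEC, which by itself favours a smaller one in the DG. Flt1 in the DG was 9.037, 8.876 and 8.9 in ACR7 and 9.876, 9.734 and 9.691 in RUN7, again without overlap, against 8.795, 9.472 and 10.42 in CTR7. The DG difference was -0.83 for Flt1, -0.47 for Cxcl12 and -0.10 for Slco1a4. A limma test within the DG alone called 0 of 8756 genes, with 0.153 as the smallest adjusted p. Its adjusted p was 0.606 for Flt1, 0.828 for Cxcl12 and 0.916 for Slco1a4. In the fit of both tissues, 1 of 8271 genes was called for ACR7 minus RUN7 in the DG. The test of LEC minus DG, with the mouse as a block, called 0 of 8271 genes (0%) at an adjusted p under 0.05 and found 643 (7.77%) at an unadjusted p under 0.05, with 0.476 as the smallest adjusted p. Without DG ACR7 replicate 2 it called 5. Of the 13 genes, 7 reached an unadjusted p under 0.05, a count that their choice on the LEC difference favours, and the smallest adjusted p among them was 0.588. A difference between the tissues was thus not shown, nor was its absence. Over the 81 vessel genes measured in both tissues the median was -0.08 in the DG, and 53 had lower means in ACR7 there. Of all 8271 genes measured in both tissues, 48.1% had lower means in ACR7 in the DG. In each group 2 of the 3 mice gave both tissues, so the tissues are not independent.

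**Figure D5:**
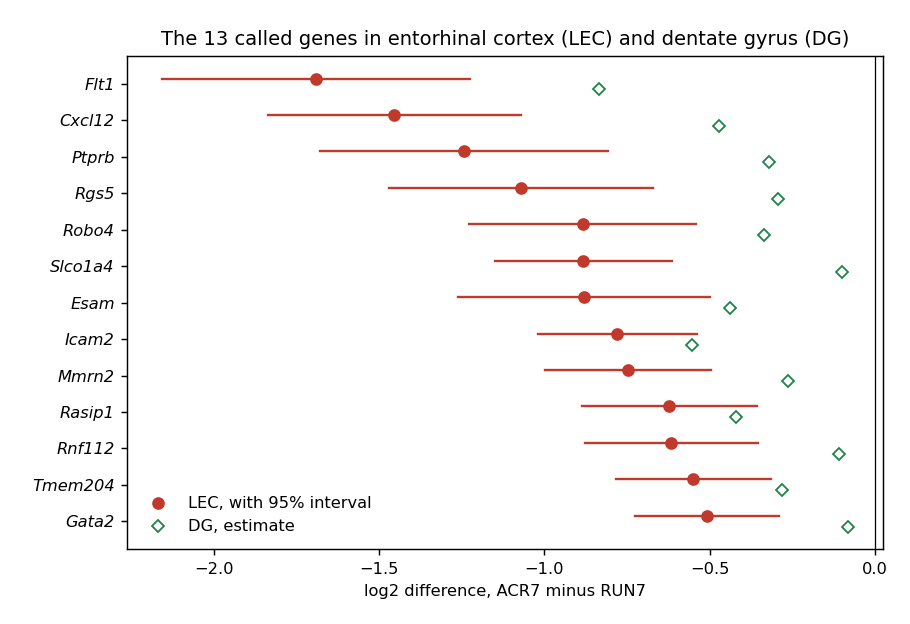
Log2 difference of ACR7 minus RUN7 for the 13 genes called in the LEC (red circles with 95% intervals) and the estimate for the same genes in the DG (green diamonds). All DG estimates lie between -0.83 and -0.08, on the same side of 0 as in the LEC.

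Markers of other cells were compared as well. Microglial genes leaned the other way. Of 12 measured, 11 had higher means in ACR7, 5 reached an unadjusted p under 0.05 against 2.69% of all genes, and 0 were called. The complement genes C1qb and C1qc, made by microglia in the brain, had differences of 0.35 (adjusted p = 0.834) and 0.29 (adjusted p = 0.69), and the ADP receptor P2ry12 one of 0.43 (adjusted p = 0.872). The list's mean level was 8.281 to 8.339 in ACR7, 8.014 to 8.184 in RUN7 and 8.235 to 8.331 in CTR7, so ACR7 lay with the controls. Myelin genes had higher means in ACR7 in all 11 cases measured, with a median of 0.31, but the list's level overlapped between ACR7 (10.35 to 10.83) and RUN7 (10.11 to 10.51) and none had groups apart. Astrocyte genes had a median of 0.09. The red blood cell genes Hbb-bt and Hba-a1, a trace of blood left in vessels, had differences of 0.16 and -0.17, and both overlapped between the groups. The part of these cells in the vessel result was not tested.

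Genes of neighbouring regions were not level between the arrays. Gal, the precursor of galanin, was 7.44, 7.10 and 6.92 in ACR7, 5.77, 5.77 and 6.92 in RUN7 and 5.65, 5.78 and 5.67 in CTR7, and Avp, the vasopressin gene, was 8.51, 6.92 and 8.56 in ACR7, 6.13, 5.82 and 8.14 in RUN7 and 5.65, 5.95 and 5.82 in CTR7. Both genes are known from hypothalamic and amygdalar neurons, not as cortical markers. They were at the ACR7 level in RUN7 replicate 3 and low in the other RUN7 arrays, and neither passed the direct test (adjusted p = 0.658 and 0.913). Against CTR7, Gal was called higher in ACR7 (1.45, adjusted p = 0.0282) and Avp was not (2.19, adjusted p = 0.067). Of the 13 called genes, RUN7 replicate 3 was the highest RUN7 array in 2 (Flt1 and Cxcl12) and the lowest in 4 (Icam2, Rasip1, Tmem204 and Gata2), while RUN7 replicate 1 was the highest in 10. The 13 measured genes of the list for hypothalamus, amygdala and subplate had a mean level of 8.553 to 8.742 in ACR7, 7.941 to 8.607 in RUN7 and 7.018 to 7.926 in CTR7. Against CTR7, 5 of these 13 were called higher in ACR7 (0.796% of all genes) and 2 in RUN7 (0.714% of all genes). Of 14 genes of choroid plexus and ependyma 3 were measured and 0 called, with a mean level of 7.067 to 7.624 in ACR7, 6.531 to 6.828 in RUN7 and 6.315 to 7.376 in CTR7. The part of such tissue in the vessel result, and in the place of CTR7 beside both groups, was not tested.

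No gene was called higher in ACR7 than in RUN7. The 15 genes with the smallest p among those higher in ACR7 with groups apart had differences of 0.30 to 0.55 and are given as values. Dcxr, a reductase of xylulose and dicarbonyls, had 7.42, 7.34 and 7.41 in ACR7 and 6.78, 6.90 and 7.06 in RUN7 (0.48, adjusted p = 0.102). The phenol sulfotransferase gene Sult1a1 had 0.55 (adjusted p = 0.169) and the zinc finger gene Zfp334 0.32 (adjusted p = 0.119). Sesn1, a p53-responsive sestrin known to act on AMPK and mTORC1, had 10.17, 10.07 and 10.11 in ACR7 and 9.92, 9.79 and 9.74 in RUN7 (0.30, adjusted p = 0.344), but its other probe had -0.34 (unadjusted p = 0.147), in the opposite direction. Cpt2, which brings fatty acids into mitochondrial oxidation, had 0.31 (adjusted p = 0.552). The rest were Wrap73, Lrrc1, Psmg3, Stag1, Ift27, Cfl1, Prodh, Gpx7, Carhsp1 and H2ac11.

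In energy metabolism and protein synthesis 0 genes of the lists counted were called. Glycolysis genes had higher means in ACR7 in 9 of 16 cases (median 0.03), citric acid cycle and pyruvate genes in 13 of 22 (median 0.03) and genes of fatty acid oxidation and ketones in 14 of 20 (median 0.06). Complex I subunits had higher means in ACR7 in 29 of 32 cases (median 0.15), subunits of complexes II to V in 36 of 36 (median 0.15), mitochondrial ribosomal proteins in 60 of 66 (median 0.12) and cytosolic ribosomal proteins in 49 of 54 (median 0.17). The mean level of complex I was 11.09 to 11.25 in ACR7 and 10.75 to 11.21 in RUN7, with RUN7 replicate 1 the lowest array, and without RUN7 replicate 1 the medians were 0.03 for complex I, 0.01 for complexes II to V, 0.07 for mitochondrial and 0.04 for cytosolic ribosomal proteins. In the DG the respiratory and ribosomal lists had medians of the opposite sign, at -0.23 for complex I and -0.26 for cytosolic ribosomal proteins, a difference that was not tested as a list. Genes of AMPK and PGC-1alpha, the pathway on which AICAR acts, had a median of 0.02 over 21 genes with 0 called. The catalytic subunit gene Prkaa2 was 8.83, 8.54 and 8.93 in ACR7 and 8.84, 8.94 and 8.80 in RUN7. The coactivator genes Ppargc1a and Ppargc1b had differences of 0.00 and -0.28, Foxo1 0.30, Sirt3 0.19 and Camkk2 -0.22, each with an adjusted p of 0.961 or more. Among 19 genes that handle AICAR, purines and adenosine, 0 were called. The equilibrative nucleoside carrier Slc29a1, which moves adenosine across membranes, was 8.22, 8.20 and 7.89 in ACR7 and 7.68, 7.77 and 7.69 in RUN7 (0.39, adjusted p = 0.672), and Impdh1, an enzyme of guanine nucleotide synthesis, had -0.36 (adjusted p = 0.913), Gart 0.27 and Adss -0.26.

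No member of the neuronal gene lists described here was called. Of 30 potassium channel genes, 25 had lower means in ACR7 (47.7% of all genes) and 3 of these reached an unadjusted p under 0.05 (2.74% of all genes), with a median of -0.10 and 0 called. Kcna1, a delayed rectifier of axons, had 7.27, 7.04 and 7.14 in ACR7 and 8.01, 7.31 and 7.83 in RUN7 (-0.56, adjusted p = 0.834), and the GIRK2 gene Kcnj6 had -0.31. Clock genes had 0 of 18 called. Nfil3, a repressor in the clock's output, had a difference of -0.46 (adjusted p = 0.646) and Arntl, the core activator BMAL1, one of -0.36 (adjusted p = 0.702), both with groups apart. Dbp, a clock output gene, was 12.56, 12.31 and 12.52 in ACR7, 11.61, 12.49 and 12.56 in RUN7 and 11.42, 11.70 and 11.65 in CTR7, so RUN7 replicate 1 sat with the controls and the direct difference of 0.25 was within that spread (adjusted p = 0.986). Immediate early genes had a median of -0.07 over 21 genes, and Ier3 and Egr3 had 0.21 and 0.18, Nptx2 and Dusp6 -0.26 and -0.20. Bdnf, the neurotrophin most tied to exercise, was 8.84, 8.76 and 8.88 in ACR7 and 9.59, 8.99 and 8.89 in RUN7 (-0.33, 95% interval -0.71 to 0.05, adjusted p = 0.979), against 9.22, 9.07 and 9.21 in CTR7. Its other probe differed by -0.35 (unadjusted p = 0.037, limma). Of the 15 measured neurotrophins and activity growth factors 11 had lower means in ACR7, with a median of -0.165 and 0 called, and Fgf1 and Ngfr had 0.30 and 0.13. Vegfa, the ligand of Flt1 and Kdr, was 8.70 to 9.06 in ACR7 and 8.98 to 9.38 in RUN7 (-0.21, 95% interval -0.43 to 0.01, adjusted p = 0.951). The other Vegfa probe differed by -0.07 (unadjusted p = 0.598, limma). Neuronal nitric oxide synthase Nos1 had -0.12. The list of nitric oxide and vessel growth factors, which holds Flt1, had a median of -0.10 over 16 genes.

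A last group of genes was named whatever its values. The troponin gene Tnnc1 was 7.73, 7.81 and 8.54 in ACR7, 8.63, 8.74 and 8.16 in RUN7 and 9.41, 10.69 and 8.77 in CTR7, a difference between the treatments of -0.48 (adjusted p = 0.986). The atrial myosin light chain gene Myl4 had -0.32, the sodium channel gene Scn1a -0.18 and the calreticulin gene Calr -0.10. Igsf1 had 0.55, Smpdl3b 0.21, Nr2f2 0.04, Notch1 0.12, Ptpn1 0.02 and Rab7 -0.01, each with overlapping groups and an adjusted p of 0.986 or more. Ddt, a tautomerase related to the cytokine MIF, was the only one of these fixed genes besides Bdnf with groups apart, at 7.56, 7.40 and 7.58 in ACR7 and 6.77, 7.19 and 7.29 in RUN7 (0.43, adjusted p = 0.588). Prkaa1, Slc2a4, Il1b and Hsp90ab1 were not tested here.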

How the data were processed

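RNA from the LEC and DG of mice was measured on 54 arrays, 28 of the LEC. The deposited bead intensities and detection p-values came from GenomeStudio 1.6.0, and the authors did not normalize them between arrays. The deposited score of each probe is a z-score of log intensity within its array, made by the authors, and the recomputed score differed from it by at most 5e-10. Each array's log2 intensities were turned into z-scores, multiplied by the mean array SD (1.748 in the LEC) and shifted to the mean of 7.082. Probes with a detection p of 0.02 or less on every array of at least 1 LEC group were kept (12233), and the brightest probe of each gene was used (8544 genes). Of 25697 probes 23978 had 1 symbol and 1719 none, and 8 symbols were updated through RefSeq (GRCm38.p6).

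Group means of all 28 LEC arrays were fitted in limma 3.58.1 (R 4.3.3), and p-values were adjusted by Benjamini-Hochberg over all genes. Intervals are 95% intervals of that fit. The LEC minus DG test used all 54 arrays with mouse as a random block (correlation -0.0633). The scripts were tested on simulated data. Precision is limited by 3 arrays per group. Slide and scan date are not given in the sources used here, so no batch could be fitted.

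Named genes were all called genes, the 15 genes with the smallest p in each direction whose groups did not overlap, up to 2 higher and 2 lower members of each described list, and a set named always. Members and lists were chosen with earlier results of these data known. The 7 vessel lists, the vessel genes outside the threshold and Gal, Avp, P2ry12, Klf2 and Sox18 were chosen after their values were seen. Alternatives were other normalizations, filters, probes, sets of arrays, thresholds and leaving out each array.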

Additional observations from a re-analysis of the deposited data

How the results depend on the processing

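The direction of all 13 called genes held under every alternative in which they were tested, and their number did not. It was 9 after quantile normalization, 10 after neqc, 13 with the deposited z-scores, 9 with every probe on its own and 8 with median-centred log2 values. It was 6 with only the 6 arrays compared, 1 with the 9 arrays of day 7 and 2 among the 6989 genes that each LEC array detected at p of 0.01 or less. Without a detection filter it was 15 of 16590 genes, of which Zfp334 was higher in ACR7 (0.32). It was 41 at an adjusted p under 0.3, with 6 higher, and 179 by the selection of the study's methods, with 78 higher and 101 lower. Leaving out 1 array gave 4 to 10 calls, 0 to 445 for ACR7 against CTR7, 0 to 410 for RUN7 against CTR7 and 0 to 5 for LEC minus DG, where the 5 came without DG ACR7 replicate 2. Flt1 was called in 16 of 16 alternatives and Cxcl12 in 14 of 16, but Esam and Rnf112 in 2 of 16, Tmem204 in 3 of 16, Gata2 in 3 of 15 and Rasip1 in 5 of 15. The cause of these changes was not tested, except that fewer arrays or fewer genes were used where stated.

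Deviations from the group mean correlated at -0.00163, -0.349 and 0.0105 between ACR7 and RUN7 arrays of the same replicate number. Between arrays of unlike numbers the correlations ran from -0.324 to 0.369. A pairing by replicate number was thus not seen, but 3 arrays per group cannot exclude one. With the replicate block on the 9 arrays of day 7 there were 2 calls for ACR7 against RUN7, 1 for ACR7 against CTR7 and 1 for RUN7 against CTR7. Among the uncalled genes, single arrays turned the sign of differences near 0. Without 1 array they ran from -0.0569 to 0.416 for Dbp, -0.0428 to 0.498 for Hbb-bt, -0.408 to 0.104 for Hba-a1, -0.421 to 0.0733 for Scn1a, -0.173 to 0.0262 for Prkaa2, -0.178 to 0.0516 for Calr, -0.0723 to 0.0255 for Kdr, -0.213 to 0.251 for Ptpn1, -0.012 to 0.113 for Nr2f2, -0.0771 to 0.0991 for the cathepsin gene Ctss, -0.0767 to 0.0399 for Rab7 and -0.162 to 0.12 for Ppargc1a. Under quantile normalization, neqc and median-centred values Ctss had 0.0223, 0.0293 and 0.00792. Rab7 had 0.0277 with median-centred values, and Ppargc1a had -0.00216 under quantile normalization and -0.000881 under neqc. The median of the endothelial markers stayed between -0.72 and -0.47. Near background, as for Slco1a4, Icam2, Mmrn2 and Gata2, the arrays give the size of a difference poorly.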
